A study of Homo sapiens with 6 samples.

Results

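FOS, EGR1 and IER2 are immediate early genes, and each is represented by a single RefSeq transcript among the 10191 rows of the deposited table. The 3 rows were taken by gene symbol: NM_005252 for FOS, NM_001964 for EGR1 and NM_004907 for IER2. The genes themselves were chosen with earlier results of these data known. All 3 are among the 8600 transcripts tested, those averaging 10 or more normalized counts. The libraries hold total RNA of Huh7, an established human liver cancer line grown in DMEM, taken 1 week after puromycin selection. In 3 libraries the cells carried a scrambled shRNA and in 3 an ABL1 shRNA, so that both groups had been selected with puromycin and both express a hairpin. No other treatment was given according to the labels. ABL1 encodes a tyrosine kinase of the cytoplasm and nucleus, and the design asks which RNAs differ once its own RNA is reduced. Whether the replicates were separate cultures is not stated, nor is the number of hairpins or clones, so the p-values reflect how far these libraries differ from each other, possibly for technical reasons alone.

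Immediate early genes are switched on within minutes of a growth factor, serum or stress signal, without new protein synthesis. The ERK kinases phosphorylate ternary complex factors such as ELK1, which sit with serum response factor (SRF) on CArG boxes in the promoters, while CREB acts through cyclic AMP response elements. The RNAs are short-lived, and FOS RNA in particular is removed through AU-rich elements in its tail. FOS pairs with JUN proteins to form the transcription factor AP-1, EGR1 is a zinc finger factor restrained by the NAB corepressors, and IER2 is a small nuclear protein.

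Reads recovered from the deposited signal and summed over its 10191 rows were 7713451 to 10487862 per scrambled library. They were 6651413 to 7952645 per knockdown library. Reads outside these rows are not known, so these sums are not the sequencing depth. Values below are normalized counts, that is, reads multiplied by the authors' relative scale factor of the library, unless reads are named. The major ABL1 transcript, NM_007313, had 73.4, 71.7 and 71.3 normalized counts with the scrambled shRNA against 13.7, 10.2 and 9.28 with the ABL1 shRNA, while NM_005157 had 9.17, 6.72 and 10.3 against 17.6, 19.2 and 24.8. NM_005157 was thus called higher (log2 change 1.15, limma adjusted p = 0.0180). Both transcripts summed gave 82.5, 78.5 and 81.6 against 31.3, 29.4 and 34.0, a smaller fall than that of NM_007313. Of 13 hepatocyte and hepatoma markers 8 were in the table, with AFP averaging 235839 normalized counts in the scrambled group and ALB 84502, and their sum was 508749 to 571298 in scrambled and 442583 to 488444 in knockdown libraries. Markers of other cell types were present in part. The 3 of 9 immune markers in the table, almost entirely LYZ, summed to between 5714 and 6331 in scrambled and 6544 to 7489 in knockdown libraries, and the 4 of 7 endothelial markers to 176 to 204 and 125 to 147. The 6 of 7 fibroblast markers, mostly COL1A2, summed to 8912 to 9908 and 13259 to 14609. Single members differed from these sums. Of the immune markers 1 rose and 2 fell: LAPTM5 (log2 change -2.39, on 2 to 6 reads per knockdown library) and FCER1G (-0.79). Of the endothelial markers 3 fell and 1, VWF, rose (1.08). Of the fibroblast markers 4 rose and 1, COL1A1, fell (-1.03). The immune markers PTPRC and CD3E and the endothelial KDR were not analysed here. The part of these markers in the results below was not tested.

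The promoters are shown because these genes are defined by how they are switched on, and because all 3 RNAs were lower in the knockdown libraries. The 250 bases before each RefSeq start site (GRCh38.p14) lie on the plus strand at chr14:75278578-75278827 for FOS, chr5:138465229-138465478 for EGR1 and chr19:13150161-13150410 for IER2. Each is printed 5′ to 3′. Capitals mark matches on either strand to the CArG box, to the core of the cyclic AMP response element (TGACG), to an ETS core (CCGGAA, the kind of site ternary complex factors bind) and to the TATA box (TATAAA).
FOS: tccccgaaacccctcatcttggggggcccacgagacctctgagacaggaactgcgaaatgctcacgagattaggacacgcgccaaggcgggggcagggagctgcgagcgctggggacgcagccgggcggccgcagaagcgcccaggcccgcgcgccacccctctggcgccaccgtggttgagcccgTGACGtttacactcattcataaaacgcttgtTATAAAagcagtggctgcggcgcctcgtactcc
EGR1: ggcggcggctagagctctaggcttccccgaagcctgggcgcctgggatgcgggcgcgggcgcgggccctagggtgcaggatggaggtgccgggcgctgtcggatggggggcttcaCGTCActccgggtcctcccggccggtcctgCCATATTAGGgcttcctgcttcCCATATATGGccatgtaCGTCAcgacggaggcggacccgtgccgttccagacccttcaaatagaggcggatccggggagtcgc
IER2: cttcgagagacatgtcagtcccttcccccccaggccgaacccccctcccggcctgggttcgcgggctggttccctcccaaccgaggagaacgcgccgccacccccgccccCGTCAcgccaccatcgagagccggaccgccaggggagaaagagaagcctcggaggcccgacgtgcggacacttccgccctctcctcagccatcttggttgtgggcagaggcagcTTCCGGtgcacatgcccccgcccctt

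The core of the cyclic AMP response element was the only one of these 4 motifs found in all 3 windows, and it is common: 21.2% of the 35116 RefSeq promoters hold it. In FOS it starts 64 bases before the start site, with the TATA box 33 bases before it. In EGR1 there are 2 copies, 135 and 66 bases upstream, and in IER2 there is 1, 140 bases upstream. EGR1 alone has CArG boxes in this window, CCATATTAGG and CCATATATGG, which begin 105 and 83 bases before the start, and 1.16% of all promoters have at least 1. IER2 has the ETS core at 26 bases, a motif of 14.5% of promoters, and the TATA box of FOS is one that 10.7% have. Only exact CCGGAA was searched, so ETS sites of another sequence in any of the windows were missed. The CArG box that FOS is known for lies further upstream than the window reaches. The windows of all 3 are rich in G and C, with 64.8% in FOS, 68.4% in EGR1 and 69.6% in IER2 against a median of 58% over all promoters. GENCODE 29 begins the FOS transcript at 75278774, inside the window, whereas RefSeq begins it after the window's end.

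The 3 genes were lower in every knockdown library than in every scrambled one, by unequal amounts. FOS had 127, 123 and 99.5 normalized counts with the scrambled shRNA against 16.6, 20.3 and 21.7 with the ABL1 shRNA. The lowest scrambled value was more than 4 times the highest knockdown value, and the groups were far apart compared with the spread inside them. The mean fell from 116 ± 14.9 to 19.5 ± 2.61 (SD, n = 3 each), a log2 change of -2.52 (SE 0.22, limma adjusted p = 1.18e-06), which is 5.72-fold lower with a 95% interval from 4.13 to 7.92. Fold changes are on the log2(normalized count + 1) scale. FOS rests on the fewest reads of the 3, with 152, 110 and 106 per scrambled library against 17, 18 and 21 per knockdown library. Reads pooled over each group and corrected with the authors' scale factors gave a ratio of 0.167 (exact 95% interval 0.124 to 0.222, which covers counting error only).

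EGR1 had 684, 698 and 724 normalized counts with the scrambled shRNA against 238, 216 and 225 with the ABL1 shRNA. These are the tightest groups of the 3 genes, with a coefficient of variation of 2.93% in the scrambled and 4.85% in the knockdown libraries, and they did not overlap. The mean fell from 702 ± 20.6 to 226 ± 10.96 (SD, n = 3 each; log2 change -1.63, SE 0.09, limma adjusted p = 4.99e-08). EGR1 was thus 3.10-fold lower, with a 95% interval from 2.69 to 3.57.

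IER2 had 1586, 1384 and 1443 normalized counts with the scrambled shRNA against 863, 825 and 915 with the ABL1 shRNA. The groups again did not overlap, but they lay closer together than those of FOS and EGR1. The mean fell from 1471 ± 104 to 868 ± 45.2 (SD, n = 3 each; log2 change -0.76, SE 0.08, limma adjusted p = 8.62e-06), 1.69-fold lower with a 95% interval from 1.49 to 1.92. An antisense gene, AC011446.2, lies on the minus strand within IER2 (chromosome 19, 13153071 to 13154193). Whether the counting used strand is not stated, so reads of this gene and of IER2 cannot be told apart. GENCODE 29 places no second gene over FOS or EGR1.

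**Figure D1:**
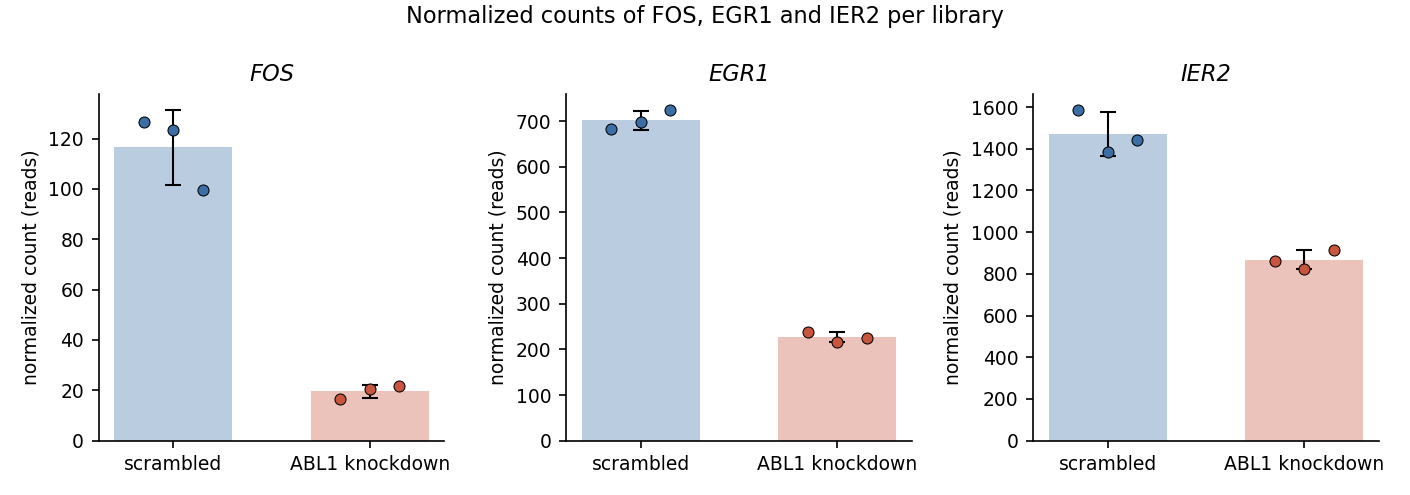
Normalized counts (reads) of FOS, EGR1 and IER2 on linear axes from 0, with 1 point per library, bars for the mean and error bars for the SD of 3 libraries. The knockdown points lie below all scrambled points for each gene, with means of 116 and 19.5 for FOS, 702 and 226 for EGR1 and 1471 and 868 for IER2.

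These calls stand in a table where many transcripts differed. By limma's adjusted p, 51.9% of the 8600 tested transcripts were called, 27.4% as lower and 24.5% as higher in the knockdown, and in 30.7% all 3 knockdown libraries lay below all 3 scrambled ones. A call or a lack of overlap was therefore common in this table. FOS had the 43rd lowest log2 change of the 8600, EGR1 the 242nd and IER2 the 1214th, so that 0.488%, 2.802% and 14.1% of transcripts had a lower one. The scaling shifts such values. With libraries set to equal totals over the deposited rows, the median log2 change of all transcripts moved from 0.0018 to 0.17. The calls moved from 2105 higher and 2355 lower to 2967 higher and 1699 lower. On that scale the log2 changes were -2.35 for FOS, -1.46 for EGR1 and -0.59 for IER2, and all 3 kept their calls.

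**Figure D2:**
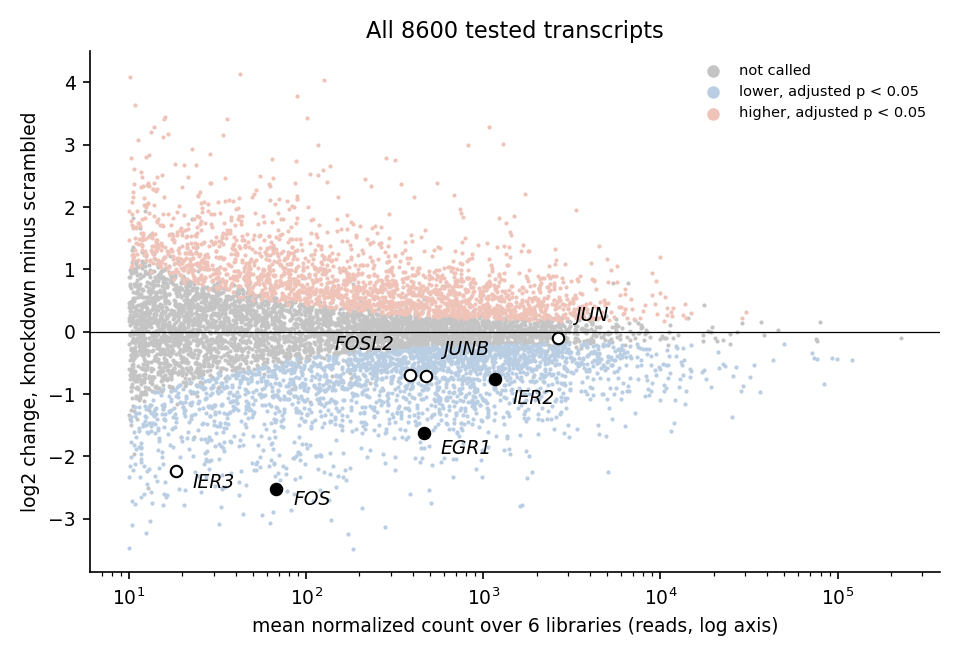
Log2 change (knockdown minus scrambled) of every tested transcript against its mean normalized count on a log axis, coloured by limma's call. Filled circles are FOS (-2.52), EGR1 (-1.63) and IER2 (-0.76), and open circles are JUN (-0.10), JUNB (-0.71), FOSL2 (-0.69) and IER3 (-2.23).

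Bulk RNA does not tell whether every cell had less of an RNA or fewer cells had it. Comparing the genes with each other needs the level per transcript length. IER2 was the most abundant, at 706 ± 49.7 normalized counts per kilobase in the scrambled libraries and 416 ± 21.7 in the knockdown libraries (SD, n = 3). EGR1 followed at 224 ± 6.57 and 72.1 ± 3.49 counts per kilobase, and FOS came last at 54.0 ± 6.88 and 9.06 ± 1.21. The order was the same in both groups, and no library of one gene reached the range of the next: in the scrambled group FOS spanned 46.1 to 58.7 counts per kilobase, EGR1 218 to 231 and IER2 664 to 761. EGR1 in the knockdown libraries (68.8 to 75.7) was still above FOS in the scrambled ones. Among the 8142 tested transcripts with a known length, FOS went from percentile 46.5 to 15.8 of the level per kilobase, EGR1 from 72.9 to 52.03 and IER2 from 89.4 to 83.7.

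The unequal falls were compared as the log2 ratio of 2 genes inside each library, each gene taken as log2(normalized count + 1). Library scaling cancels except for the added 1, which weighs most for FOS. FOS relative to EGR1 was -2.42, -2.49 and -2.85 with the scrambled shRNA against -3.76, -3.34 and -3.32 with the ABL1 shRNA, a difference of -0.88. For FOS relative to IER2 the difference between the group means was -1.76, and for EGR1 relative to IER2 it was -0.87. A ratio to JUN, chosen after the values were seen, gave -2.42 for FOS. In all 4 comparisons the groups did not overlap, and each had a two-sided exact permutation p of 0.1, also 0.1 after Benjamini-Hochberg adjustment, which is the smallest that 3 against 3 libraries allow. For FOS relative to IER2 the SD of the log2 ratio was 0.184 in the scrambled and 0.181 in the knockdown group, and for FOS relative to EGR1 0.231 and 0.248, so the differences exceeded the spread between libraries. Within groups the 3 genes did not share an order of libraries. Scrambled replicate 1 was the highest for FOS and IER2 and the lowest for EGR1, and knockdown replicate 3 was the highest for FOS and IER2, but replicate 1 for EGR1.

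The transcripts have few exons. FOS (GRCh38, chromosome 14, 75278774 to 75282230, plus strand) has 4 exons in GENCODE 29, EGR1 (chromosome 5, 138465490 to 138469315, plus strand) has 2 and IER2 (chromosome 19, 13150433 to 13154908, plus strand) has 2, against a median of 7 over the tested transcripts. Of the 1586 tested coding transcripts with 2 to 4 exons 31.1% fell, as did 31.1% of those with 5 to 9 and 29.6% of those with 10 or more. Their tails differ. The 3′ untranslated region of FOS holds 5 copies of ATTTA, the core of AU-rich elements that mark RNAs for decay, that of EGR1 has 1 and that of IER2 has 0, where the median of coding transcripts is 2. The stretches of 30 bases with the most copies are shown for the 2 genes that have any, with ATTTA in capitals.
FOS: aaacgttttattgtgtttttaATTTATTTA
EGR1: tctatttttttaactgaaaatgtaaATTTA

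Over the whole table copies of ATTTA went with a smaller share of falls. Of the 2033 coding transcripts with 5 or more copies 27.9% fell and 28.3% rose, with a median log2 change of 0.03. Of the 2308 with none 33.1% fell and 20.5% rose, with a median of -0.10.

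Promoter matches were likewise read against the table. Of 79 tested transcripts whose gene has a CArG box in the window 23 fell and 18 rose, with a median log2 change of 0.02, and 29.1% lower is close to the 27.6% among the 6411 without one. EGR1 had the fourth lowest change of those 79. With the full cyclic AMP response element (TGACGTCA), which none of the 3 genes has, 56 of 199 fell (28.1%). With its core 555 of 2068 fell (26.8%), with the ETS core 447 of 1795 (24.9%) and with the TATA box 126 of 535 (23.6%). The GC box (GGGCGG), held by 42.6% of all promoters, occurs once in the FOS window and 3 times in that of IER2. With it 29.2% of 4662 tested transcripts fell and without it 23.5% of 1828, a wider gap than for the other motifs searched. A site for EGR1 itself (GCGTGGGCG) was found for 107 tested transcripts, of which 30 fell and 21 rose. The AP-1 site (TGAGTCA) was found for 225, of which 57 fell and 57 rose (25.3% each), with a median log2 change of 0.04.

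FOS was the member of the AP-1 group with the lowest log2 change. Of 18 listed AP-1 genes and dimer partners 7 were tested. Of these, 5 fell (71.4%, against 27.4% of all tested transcripts) and 1 rose (14.3% against 24.5%). The median log2 change was -0.69 against 0.0018 over all tested. The 5 and this median include FOS itself. JUN, the classic partner of FOS, had 3165, 2452 and 2586 normalized counts with the scrambled shRNA against 2438, 2386 and 2803. These groups overlapped, and the log2 change of -0.10 (SE 0.10, limma adjusted p = 0.426, 95% interval -0.32 to 0.12) was not called, and it ran from -0.17 to 0.07 over the alternatives. JUNB, a JUN relative that also pairs with FOS, had 649, 519 and 602 against 431, 287 and 372, and fell by 0.71 on the log2 scale (adjusted p = 0.00105). FOSL2, a FOS relative that also forms AP-1, had 560, 395 and 478 against 289, 287 and 300, and fell by 0.69 (adjusted p = 0.000514). Scrambled replicate 2 was the lowest of its group for JUN, JUNB and FOSL2.

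Among the MAF proteins, leucine zipper factors that can pair with FOS or with each other, MAFK fell and MAF rose. MAFK went from 653 ± 74.8 to 465 ± 12.9 normalized counts (log2 change -0.48). MAF went from 199 ± 31.6 to 311 ± 46.5 (0.64, limma adjusted p = 0.00281; SD, n = 3 each). BATF, BATF3, MAFG and JDP2 were under the filter, at means of 4.51 to 7.53, and FOSB, FOSL1, JUND, ATF2, ATF3, ATF7 and MAFF were not analysed here.

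EGR1 was the one EGR factor measured, and its 2 corepressors did not fall with it. NAB2, which is itself an EGR1 target and represses it, had 965, 824 and 745 normalized counts with the scrambled shRNA against 898, 771 and 919, with overlapping groups (log2 change 0.03, limma adjusted p = 0.810, and -0.05 to 0.21 over the alternatives). The median of the 3 tested was 0.03. NAB1 had 668, 820 and 790 against 918, 1015 and 832. Its log2 change of 0.28 passed (adjusted p = 0.0374) but lost its call without scrambled replicate 1 or 3 or knockdown replicate 1 or 2, and its adjusted p ran from 0.00364 to 0.151 over the alternatives. EGR2, EGR3 and EGR4 were not analysed here.

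All 4 IER genes fell, where 27.4% of all tested transcripts did, with a median log2 change of -1.23 against 0.0018. The 4 and their median include IER2 itself, which had the smallest change of them. IER5, a relative of IER2, had 806, 556 and 755 normalized counts with the scrambled shRNA against 243, 190 and 256, a log2 change of -1.61 (SE 0.15, limma adjusted p = 2.21e-06). IER5L, a further relative, had 2003, 1417 and 1976 against 943, 899 and 1139 (log2 change -0.85). IER3, which shares the prefix but not the protein family and acts on ERK signalling and survival, had 29.2, 26.9 and 35.7 against 2.93, 5.65 and 10.3. It fell by 2.23 (SE 0.43, adjusted p = 0.000780) on 24 to 38 reads per scrambled and 3 to 10 per knockdown library.

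**Figure D3:**
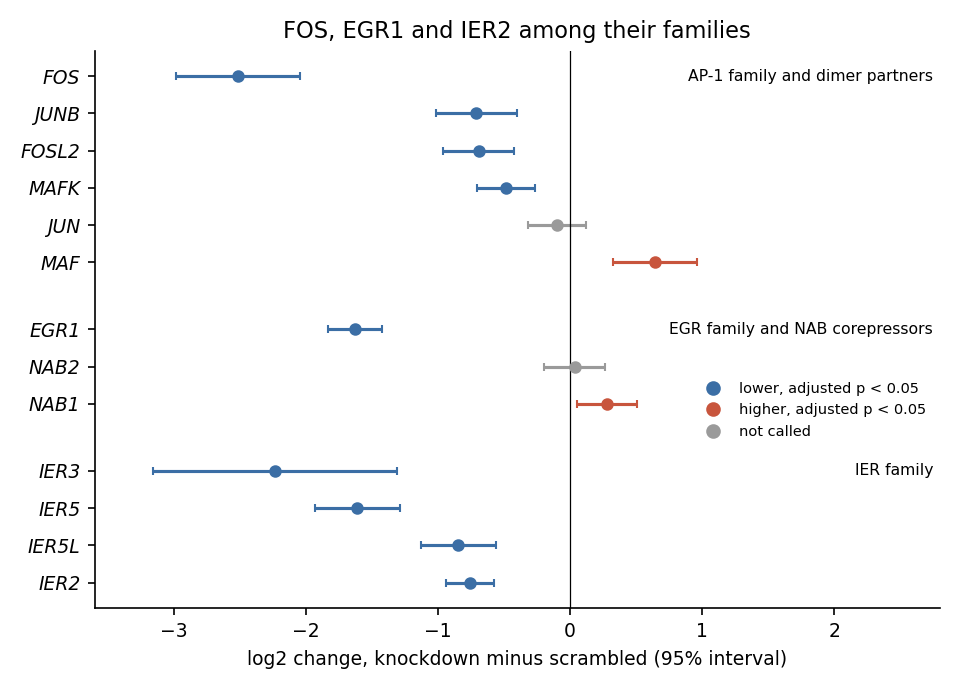
Log2 change (knockdown minus scrambled) with its 95% interval from limma for the tested members of the AP-1, EGR with NAB, and IER groups named in the text, coloured by call at an adjusted p under 0.05. FOS (-2.52) and EGR1 (-1.63) lie lowest in their groups, JUN (-0.10) and NAB2 (0.03) were not called, and all 4 IER genes lie below 0.

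A further 25 genes listed as immediate early were tested. Whether each is induced without new protein synthesis was not checked. Of the 25, 10 fell and 3 rose (40% and 12%, against 27.4% and 24.5% of all tested), with a median log2 change of -0.08. Those with the smallest p were CTGF, a secreted matrix protein (2824 ± 98.3 against 405 ± 41.3 normalized counts), MYC, a transcription factor of growth (log2 change -1.96), CCND1, the cyclin of the G1 phase (-1.65), and GADD45B, a stress-response protein (-1.57). The rises, named after their values were seen, were ID3 (0.85), BTG2 (0.39) and HBEGF (0.61). HBEGF lost its call without scrambled replicate 1 or 2 or knockdown replicate 1 or 2, with a highest adjusted p of 0.0591. Several classic members were not called, such as CYR61, a close relative of CTGF (0.05, adjusted p = 0.756), NR4A2, an orphan nuclear receptor (-0.07, adjusted p = 0.688), and PLK3 (-0.04, adjusted p = 0.857), also chosen after their values were seen. Counting the AP-1, EGR and IER groups with these genes and leaving out FOS, EGR1 and IER2, 17 of 36 fell (47.2%, against 27.4% of all tested) and 5 rose. Their median log2 change was -0.12, against 0.0018 over all tested, and it was 0.05 against 0.17 with equal totals. With scrambled replicate 1 or knockdown replicate 1 left out, 3 of the 39 with FOS, EGR1 and IER2 included rose instead of 5.

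The factors that act on these promoters were mostly not called. Of 9 tested (median log2 change 0.15), ELK3, a ternary complex factor, fell (log2 change -0.57, limma adjusted p = 0.00800) and 0 rose, that is 11.1% and 0% against 27.4% and 24.5% of all tested. With equal totals 3 rose and with quantile normalization 2. SRF, whose sites EGR1 carries, had a log2 change of 0.17 (SE 0.19, adjusted p = 0.482, 95% interval -0.24 to 0.57), and ELK4, a further ternary complex factor, -0.04. Over the alternatives SRF ran from -0.11 to 0.34. SRF and ELK4 were named after their values were seen. ELK1, CREB1 and the SRF coactivators MKL1 and MKL2 were not analysed here.

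Of 12 genes of the ERK cascade and its downstream kinases 6 fell and 2 rose (50% and 16.7%, against 27.4% and 24.5% of all tested), with a median log2 change of -0.24 against 0.0018. RPS6KA3, a kinase activated by ERK that phosphorylates immediate early proteins, went from 18289 ± 755 to 9464 ± 796 normalized counts (log2 change -0.95). MAP2K1, the kinase that activates ERK, had a log2 change of -0.86 and the growth factor receptor EGFR one of -0.50. The exchange factor SOS2 rose (0.96), as did BRAF (0.44), whereas the exchange factor SOS1 fell (-0.64). BRAF and SOS1 were named after their values were seen. With equal totals 5 of the 12 rose and 6 fell, and with quantile normalization 4 and 6.

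Feedback inhibitors are often induced with the immediate early genes. Of 15 tested 7 fell and 2 rose (46.7% and 13.3%, against 27.4% and 24.5% of all tested), with a median log2 change of -0.33 against 0.0018. The falls include IER3, already counted above among the IER genes, which rests on 3 to 10 reads per knockdown library. The ERK phosphatase DUSP7 fell from 340 to 142 normalized counts, and the log2 change was -0.62 for the nuclear ERK phosphatase DUSP5 and -0.43 for ERRFI1, an inhibitor of EGFR. DUSP8, a phosphatase of stress kinases, rose from 50.9, 40.3 and 54.4 normalized counts to 323, 94.9 and 346 (log2 change 2.17), with knockdown replicate 2 well below the other two. DUSP16 also rose (0.24) and lost its call without knockdown replicate 1 (limma adjusted p = 0.0676). DUSP1, an immediate early gene itself, had a log2 change of -0.27 that was not called (adjusted p = 0.0788), though it was without scrambled replicate 2 or with the replicate number as a block. DUSP16 and DUSP1 were named after their values were seen.

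Proteins that bind AU-rich elements or carry out the decay of such RNAs were tested through 12 genes, of which 9 fell and 0 rose (75% and 0%, against 27.4% and 24.5% of all tested), with a median log2 change of -0.60 against 0.0018. ELAVL1, a stabiliser of AU-rich RNAs, had a log2 change of -0.69 and KHSRP, which promotes their decay, one of -0.41. It was -1.87 for the exosome subunit EXOSC5 and -0.70 for PABPC1, which binds the poly(A) tail. ZFP36, the decay factor that is itself an immediate early gene, had 510 ± 20.3 against 391 ± 10.9 normalized counts (log2 change -0.38, limma adjusted p = 0.00371). With equal totals 7 fell, since ZFP36 (adjusted p = 0.0778) and EXOSC4 lost their calls. Without scrambled replicate 1 EXOSC4 lost its call, and without scrambled replicate 2 EXOSC2 and EXOSC9 did. ZFP36 and these 3 exosome subunits were named after their values were seen. EXOSC2 and EXOSC9, both among the 9 falls, rest on few reads. EXOSC2 was represented by a non-coding transcript, NR_104230, at a mean of 12.4 normalized counts and 4 to 7 reads per knockdown library. EXOSC9 had a mean of 20.6 and 8 to 12 reads per knockdown library.

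Known targets of AP-1 or EGR1 did not move in 1 direction. Of 14 tested 5 fell and 4 rose (35.7% and 28.6%, against 27.4% and 24.5% of all tested), with a median log2 change of 0.07. The log2 change was -0.78 for TGFB1, a growth factor gene that EGR1 can activate, and -1.33 for GDF15, a stress-induced growth factor. It was 1.11 for VIM, which encodes an intermediate filament protein, and 0.83 for HMOX1, which encodes heme oxygenase. The balance turned with the scaling, with 2 falls and 6 rises at equal totals and 3 falls and 4 rises with quantile normalization. Of 7 SRF and MRTF targets of the cytoskeleton (median 0.01) ACTB fell (-0.45) and WDR1 rose (0.63), 14.3% in each direction, with 4 rises and 1 fall at equal totals and 5 and 1 with quantile normalization.

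Heat shock genes respond to handling of cells before lysis, as immediate early genes do, and their values stand beside the falls above. Of 7 tested 4 fell and 2 rose (57.1% and 28.6%, against 27.4% and 24.5% of all tested), with a median log2 change of -0.29 against 0.0018. The log2 change was -1.37 for HSPA1A and -1.11 for HSPA1B, near-identical copies whose reads may be shared, and -0.58 for HSPB1. HSPA8 rose (0.53, limma adjusted p = 0.00453) and so did DNAJB1 (0.74), whose groups overlapped and which was named after its value was seen. The part of handling in the falls of FOS, EGR1 and IER2 was not tested.

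**Figure D4:**
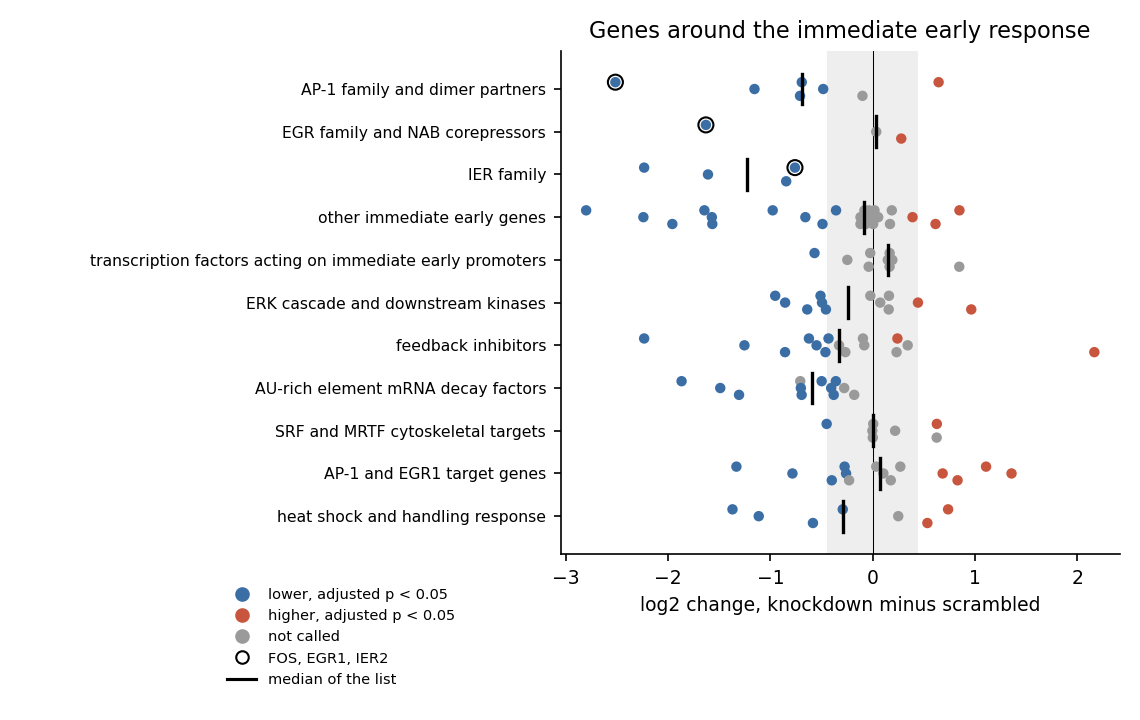
Log2 change (knockdown minus scrambled) of every tested member of 11 gene lists, 1 point per gene coloured by call at an adjusted p under 0.05, with a black bar at the list's median, circles around FOS, EGR1 and IER2, and grey shading from the lower to the upper quartile of all tested transcripts. The medians run from -1.23 for the IER family to 0.15 for the factors acting on the promoters.

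The transcripts with the profile closest to each gene were found by the Euclidean distance over the 6 libraries between log2 values centred on the gene's own mean, among 5148 with a mean of at least 100. For FOS they were S100P (distance 0.40, log2 change -2.34), RNF157 (0.40, -2.53), E2F2 (0.42, -2.29), LINC00641 (0.43, -2.72) and YBX2 (0.43, -2.70). For EGR1 they were GATM (0.11, -1.62), ICMT (0.14, -1.71), COIL (0.14, -1.62), PRKCI (0.14, -1.68) and CCND1 (0.14, -1.65), so that 1 other gene listed as immediate early lay among its closest. For IER2 they were EPS8L2 (0.06, -0.79), CRKL (0.07, -0.76), LRRC59 (0.09, -0.72), ARVCF (0.11, -0.82) and RBM14 (0.11, -0.79). The 3 genes were much further from each other, at 1.18 for FOS and EGR1, 1.09 for EGR1 and IER2 and 2.18 for FOS and IER2. With 2 groups of 3 libraries this distance is mostly the size of the group difference.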

How the data were processed

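RNA-seq values of 6 Huh7 libraries were used, 3 per group, assigned from their titles. The submitters' processing notes name HTSeq 0.6.1, HISAT2 2.0.4 and build hg38 without a role or an order. For the annotation, the strand setting and the choice of rows, nothing is stated in the sources used here. The deposited signal is, from its values, a scaled square root of reads plus 0.375 that the authors computed. It was squared and rescaled, which gave whole reads within 0.05 for 100% of rows in each library, and normalized counts keep the authors' scale factors. Totals over the 10191 rows were 6651413 to 10487862 reads.

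The 8600 transcripts averaging 10 or more normalized counts were tested with limma 3.58.1 in R 4.3.3 (lmFit, eBayes with trend) on log2(normalized count + 1). Tests were two-sided, and p-values were adjusted by Benjamini-Hochberg over the 8600, with 0.05 as the threshold. A difference is the knockdown minus the scrambled mean. On simulated data for this comparison (8610 transcripts tested) 24% of 50 transcripts with a 1.25-fold change were recovered, 72% of 50 at 1.5-fold, 87.8% of 49 at 2-fold and 100% of 47 at 4-fold. Of 143 calls 5 were false. All simulated transcripts shared the same dispersion and only a small part of them was changed, whereas 51.9% of the real transcripts were called. The recovery rates and the share of false calls may therefore differ in the real data. Chi-square per degree of freedom between replicates was 5.50 to 9.70, so no pair agreed within sampling noise.

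A listed gene was represented by whichever tested transcript was most abundant. The 3 genes, the lists and the motifs were chosen with earlier results of these data known. Named are the 3 genes, ABL1, all tested AP-1, EGR with NAB and IER members, up to 4 called members of smallest p per other list (or the 2 of smallest p where none passed), and the 5 closest profiles per gene. 1 gene that this rule names is not reported here. Promoters are from RefSeq (GRCh38.p14), found for 74.6% of rows, and a gene with several start sites counted once if any window matched. Transcript models are from GENCODE 29 (94.0% of rows matched). Exact tests used scipy 1.17.1. Alternatives changed the pseudocount, filter, scaling, variance model, summing per gene, a replicate block and the libraries included.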

Additional observations from a re-analysis of the deposited data

How the results depend on the processing

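Under all 16 alternatives FOS, EGR1 and IER2 kept their direction and their call. The log2 change of FOS ran from -2.62 to -2.31 (highest adjusted p = 2.04e-05), that of EGR1 from -1.67 to -1.46 (2.77e-06) and that of IER2 from -0.80 to -0.59 (0.000124). The smallest falls came with a pseudocount of 5 for FOS and with equal totals for EGR1 and IER2. Calls over the whole table numbered 3654 to 4821. Of the listed immediate early genes and partners 18 to 21 fell, and with each library left out in turn 3 to 5 rose. CFL1, a cytoskeletal SRF target with a log2 change of -0.0031, changed sign to 0.17 with equal totals and 0.22 with quantile normalization. Of 82 other called list genes 62 kept their call throughout and 0 reversed.

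The replicate numbers are shared between the groups, but deviations of same-numbered libraries correlated at only 0.0471, 0.0765 and 0.0768, and scrambled replicate 1 correlated better with knockdown replicate 3 (0.0886), so the numbers were not taken as pairs. With the replicate block the log2 changes were -2.52, -1.63 and -0.76 as before (limma adjusted p = 2.91e-10, 5.60e-14 and 5.76e-09), with 4821 calls in place of 4460. The SEs were not smaller, at 0.239, 0.105 and 0.0836 with the block against 0.217, 0.0946 and 0.0829 without it. The smaller adjusted p-values therefore do not reflect less spread. Depth limits IER3, with 3 to 10 reads per knockdown library, more than FOS, with 17 to 21, and FOS more than EGR1 and IER2.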
